A study of Rattus norvegicus with 4 samples.

Results

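Cell adhesion genes were followed in rat retinal neurospheres. They were taken as every gene whose single array-annotated symbol names a numbered cadherin, a protocadherin, a numbered claudin, a Tjp scaffold protein, an Ncam, a contactin or a nectin. This gave 63 genes of 14217 with a single symbol, measured by 90 probe sets. By family there were 4 type I cadherins, 8 type II cadherins, 4 other cadherins, 8 non-clustered and 9 clustered protocadherins, 16 claudins, 2 Tjp proteins, 2 Ncam genes, 6 contactins and 4 nectins. The cells came from retinas of Sprague Dawley rats at embryonic day 18, pooled from several embryos, dissociated and grown as neurospheres, which are floating clusters of dividing cells. The conditioned-medium group (labelled ECCM) received epidermal growth factor (EGF) plus medium in which endothelial cells, the cells lining blood vessels, had been grown. The other group received EGF alone, so both groups contained EGF. Each had 2 Affymetrix rat expression arrays, labelled as biological replicates. The design text describes a first pool of embryos divided over both media and a second pool for the replicates, without saying which replicate number came from which pool. The source of the endothelial cells and the culture time are not given in the labels.

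Cadherins are calcium-dependent adhesion proteins that bind their like on the neighbouring cell and are tied to actin through catenins. Protocadherins are a related, largely neuronal group, and the clustered ones give neurons a surface identity. In the Pcdha and Pcdhg clusters alternative first exons are spliced onto shared constant exons, while Pcdhb genes have no such shared exons. Claudins form the strands of tight junctions, for which Tjp (ZO) proteins are the scaffold, and nectins open the way for cadherin junctions. Ncam and contactins are immunoglobulin-type molecules of axons and neuronal contacts. In the embryonic retina N-cadherin (Cdh2) holds the neuroepithelium together.

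The deposited log2 values had not been equalised between arrays: the medians over all probe sets were 6.84 and 6.56 in conditioned medium, against 6.03 and 6.25 in EGF alone. Values per array and differences below are therefore quantile normalized log2 values unless they are called deposited or median-centred, and a difference is conditioned medium minus EGF alone with limma's standard error (SE). A gene is said to have risen or fallen only if it passed an adjusted p of 0.05 (limma, Benjamini-Hochberg over all 11491 genes tested) in the same direction on the quantile normalized, the deposited and the median-centred values. Precision is set by having 2 arrays per condition. Within a condition the tested adhesion genes differed between the 2 arrays by an SD of 0.19 (conditioned medium) and 0.24 (EGF alone), and between conditions by 0.42 to 0.47. Retinal markers were present, since all 9 progenitor markers on the array were bright enough to be tested. Of these 9, 3 rose and 0 fell. Markers of other cells moved with the condition too: 9 of 10 tested mesenchymal, 7 of 10 microglial and 2 of 8 endothelial markers rose, and 6 of 8 photoreceptor markers fell. The 3' minus 5' gap of the actin control probe sets was 1.54 and 1.37 in conditioned medium, against 1.99 and 2.08 in EGF alone. In a mixed culture, fewer cells of a type and less RNA per cell cannot be told apart.

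With conditioned medium, few adhesion genes passed on all 3 scales. N-cadherin (Cdh2) and claudin 11 (Cldn11) rose by a modest amount. The probe sets for the shared part of the Pcdha cluster fell in a separate fit of single probe sets, added after the data were seen. In that fit the probe set standing for Cdh2 did not pass on all 3 scales. Each of these calls was lost when any 1 array was left out. Of the 63 genes, 45 were bright enough to be tested and 18 were not. Of the 45, 2 rose and 0 fell, or 4.44% and 0, where 9.12% of all genes tested rose and 1.78% fell. The rule is harder to meet for a fall, because the deposited values ran higher in conditioned medium. Of all 11491 genes tested, 205 were lower on deposited values alone and 205 on all 3 scales. A gene that did not pass is therefore not shown to be unchanged. At an unadjusted limma p under 0.05 on all 3 scales the counts were 4 and 0 of the 45, where 1353 and 269 of all 11491 genes passed. The 4 were Cldn5 and Cdh6 beside the 2 that rose. On quantile normalized values by themselves 3 genes were higher (6.67%) and 12 lower (26.7%), where 16.4% and 14.6% of all genes tested were. On deposited values by themselves 12 were higher (26.7%) and 0 lower, where 40.4% and 1.78% of all genes were, and on median-centred values 4 were higher (8.89%) and 15 lower (33.3%), where 10.2% and 32.2% were. A separation of at least 1 log2 without overlap was found upwards in 0 of the 45 (2.27% of all genes) and downwards in 1 (1.07% of all genes), Cldn16. The median difference of the 45 was -0.10, against 0.00 for all genes tested, and as deposited it was 0.35, against 0.40. In 11 of the 45 both conditioned-medium arrays lay above both EGF arrays (24.4%, where 33.6% of all genes did), and in 20 both lay below (44.4%, where 32.6% did). Cdh16, Cldn19 and Cldn5 among the 11, and Pcdhb6 among the 20, were bright enough to be tested only through the condition where they were higher. In 32 of the 45 the difference was under 0.5 in size.

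**Figure D1:**
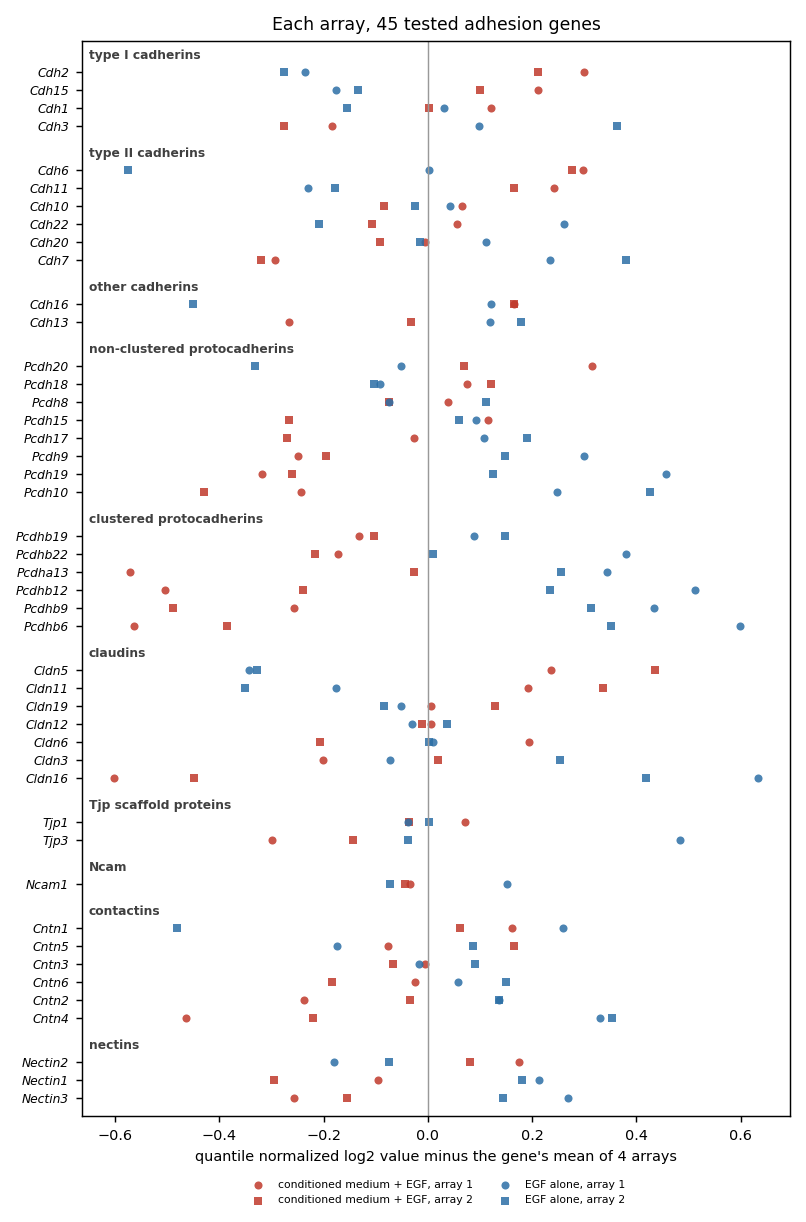
Each row is a tested adhesion gene and each point an array, at its quantile normalized log2 value minus the gene's mean over the 4 arrays; red points are conditioned medium with EGF, blue points EGF alone. The red points lie above the blue ones for Cdh2, Cdh11, Cldn11 and Cldn5, and below them for all 6 clustered protocadherins shown.

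Among the type I cadherins, which build classical adherens junctions, Cdh2 stood at 12.28 and 12.19 in conditioned medium, against 11.74 and 11.70 in EGF alone. Both conditioned-medium arrays were above both EGF arrays, and the rise was 0.51 ± 0.06 (SE; 1.43-fold, limma adjusted p = 1.65e-04 after quantile normalization, 1.67e-06 as deposited and 0.0479 median-centred). Its other probe sets also lay higher, by 0.68 and 0.23. When each probe set was fitted on its own, a setting added after the data were seen, the probe set at 0.51 that stands for Cdh2 here did not pass on all 3 scales, and neither did the one at 0.23, while the one at 0.68 did. The call on all 3 scales was lost on leaving out any single array (differences 0.47 to 0.56 after quantile normalization), each time on the median-centred values (adjusted p = 0.0708 to 0.320). It was also lost, again on the median-centred values, with the replicate number as a block (adjusted p = 0.157), with no brightness filter (0.0735) and without the intensity trend (0.114). Over all alternatives the quantile normalized adjusted p of Cdh2 stayed between 2.88e-06 and 0.0340.

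E-cadherin (Cdh1), the cadherin of most epithelia, stood at 8.22 and 8.10 in conditioned medium, against 8.13 and 7.94 in EGF alone. The groups overlapped and the difference was 0.12 ± 0.11 (adjusted p = 0.436). Cdh1 passed as deposited only (0.51, adjusted p = 0.0318). P-cadherin (Cdh3), found in the retinal pigment epithelium among other tissues, stood at 6.57 and 6.48 in conditioned medium, against 6.85 and 7.12 in EGF alone. It was lower by this measure (-0.46 ± 0.16, adjusted p = 0.0471) but not as deposited, where the difference was 0.062 (adjusted p = 0.846). M-cadherin (Cdh15), known from muscle, differed by 0.31 ± 0.15 (adjusted p = 0.142) and passed as deposited only (0.85, adjusted p = 0.00611).

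Of 6 tested type II cadherins, a group that sorts neurons and mesenchymal cells, 0 passed on all 3 scales. Cdh11, the cadherin of mesenchyme that is also found in the embryonic eye, stood at 11.75 and 11.68 in conditioned medium, against 11.28 and 11.33 in EGF alone. The groups did not overlap, and it was higher by 0.41 ± 0.07 (adjusted p = 9.26e-04) and by 0.72 as deposited (adjusted p = 5.09e-05), but not on median-centred values (0.16, adjusted p = 0.177). A dimmer Cdh11 probe set differed by 0.15. Cdh6, first known from kidney, stood at 6.13 and 6.11 in conditioned medium, against 5.83 and 5.25 in EGF alone (0.57 ± 0.23, adjusted p = 0.0860), and the EGF arrays were further apart than the conditioned-medium arrays. It passed as deposited (1.21, adjusted p = 0.00250) and median-centred (0.64, adjusted p = 0.0454). Cdh7 went the other way, at 7.32 and 7.29 in conditioned medium, against 7.85 and 7.99 in EGF alone. It was lower after quantile normalization (-0.61 ± 0.12, adjusted p = 0.00271) and median-centring (adjusted p = 5.44e-04) but not as deposited (-0.18, adjusted p = 0.487). The brain cadherins Cdh10, Cdh20 and Cdh22 differed by -0.02, -0.10 and -0.05, with overlapping groups.

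The other cadherins tested were T-cadherin (Cdh13), which is held by a lipid anchor and lacks a cytoplasmic tail, and the kidney cadherin Cdh16. Cdh13 differed by -0.30 ± 0.14 (adjusted p = 0.123) and its dimmer probe sets by -0.32 and -0.04. Cdh13 was lower on median-centred values only (-0.39, adjusted p = 0.0438). Cdh16 differed by 0.33 ± 0.31 (adjusted p = 0.446) and passed as deposited only (1.15, adjusted p = 0.0386).

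Of 8 tested non-clustered protocadherins, which steer axons and cell movements, 0 passed on all 3 scales. Pcdh10, Pcdh19 and Pcdh9 were lower after quantile normalization and after median-centring. Pcdh19, whose human gene is mutated in an epilepsy of girls, stood at 9.16 and 9.22 in conditioned medium, against 9.94 and 9.60 in EGF alone (-0.58 ± 0.11, adjusted p = 0.00232). Pcdh10 stood at 6.57 and 6.39 in conditioned medium, against 7.06 and 7.24 in EGF alone (-0.67 ± 0.15, adjusted p = 0.00684). Pcdh9 stood at 9.30 and 9.35 in conditioned medium, against 9.85 and 9.70 in EGF alone (-0.45 ± 0.09, adjusted p = 0.00308). In all 3 both conditioned-medium arrays lay below both EGF arrays, but as deposited they differed by only -0.16 (Pcdh10), -0.25 (Pcdh19) and -0.12 (Pcdh9) with adjusted p of at least 0.244. The dimmer Pcdh9 probe set differed by -0.10. Pcdh17 differed by -0.30 ± 0.10 (adjusted p = 0.0521), and its dimmer probe sets gave -0.31 and -0.33. It was lower on median-centred values only (-0.51, adjusted p = 0.00232).

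Pcdh20 and Pcdh18 lay the other way without overlap of the groups. Pcdh20 differed by 0.38 ± 0.18 (adjusted p = 0.137) and Pcdh18 by 0.20 ± 0.09 (adjusted p = 0.122), and both passed as deposited only (adjusted p = 0.00544 and 0.0116). Pcdh15, part of the tip link of hair cells and also present in photoreceptors, and Pcdh8 differed by -0.15 and -0.04, with overlapping groups.

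The clustered protocadherins had the lowest median difference of any family after quantile normalization, but not on the other scales, where that of the nectins was lower (-0.06 as deposited and -0.63 median-centred). Of 9 genes with a probe set of their own 6 were tested, and in all 6 both conditioned-medium arrays were below both EGF arrays after quantile normalization (32.6% of all genes tested did so), with a median difference of -0.67 (0.01 as deposited and -0.55 median-centred). Of these 6, 3 were lower after quantile normalization alone, where 14.6% of all genes tested were, and 0 passed on all 3 scales. Pcdhb9 stood at 6.52 and 6.29 in conditioned medium, against 7.21 and 7.09 in EGF alone (-0.75 ± 0.16, adjusted p = 0.00409). Pcdhb12 stood at 5.48 and 5.75 in conditioned medium, against 6.50 and 6.22 in EGF alone (-0.75 ± 0.20, adjusted p = 0.0179). Pcdhb6 stood at 4.26 and 4.43 in conditioned medium, against 5.42 and 5.17 in EGF alone (-0.95 ± 0.29, adjusted p = 0.0303). All 3 were below 0 as deposited too, by -0.11 to -0.23, without passing there (adjusted p = 0.448 to 0.783). Pcdhb6 passed the brightness filter only through the EGF arrays, where it was higher, with a deposited mean of 4.72 in conditioned medium and 4.92 in EGF alone. Pcdha13, Pcdhb22 and Pcdhb19 differed by -0.60, -0.39 and -0.24 (adjusted p = 0.0994, 0.302 and 0.107). Pcdhb19 was lower on median-centred values only (-0.41, adjusted p = 0.0106). Members of a cluster are close in sequence, and a probe set named for one may also bind others.

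A further 4 probe sets were annotated to many clustered protocadherins at once and so belonged to no single gene. They were fitted with every probe set above the dim limit on its own, where 1.51% of 21717 probe sets fell and 7.27% rose on all 3 scales. This fit was added after the data were seen. Both probe sets shared by 15 Pcdha transcripts fell. The brighter stood at 9.34 and 9.35 in conditioned medium, against 10.12 and 10.22 in EGF alone, a difference of -0.82 ± 0.08 (limma adjusted p = 1.10e-04, and 0.0146 as deposited). The other stood at 8.66 and 8.81 in conditioned medium, against 9.56 and 9.61 in EGF alone, a difference of -0.85 ± 0.09 (adjusted p = 1.86e-04, and 0.0182 as deposited). The conditioned-medium arrays were below the EGF arrays for both, and the quantile normalized difference lay between -0.93 and -0.78 with any array left out. On all 3 scales together the calls were lost with any array left out, each time on the deposited values. When the array left out was a conditioned-medium one, they were lost on the quantile normalized values too. They were also lost as deposited with the replicate as a block (adjusted p = 0.203 and 0.208) and without the intensity trend (0.0737 and 0.0692). The bright probe set shared by 13 Pcdhg transcripts stood at 10.64 and 10.67 in conditioned medium, against 11.18 and 11.24 in EGF alone. It was lower (-0.56 ± 0.07, adjusted p = 3.82e-04) but not as deposited (-0.24, adjusted p = 0.210). A dim Pcdhg probe set, shared by 14 transcripts, stood at 5.10 and 5.56 in conditioned medium, against 5.22 and 4.40 in EGF alone, with overlapping groups. In the same arrays markers of photoreceptors and of amacrine, horizontal and ganglion cells were lower (6 of 8 and 2 of 10 tested fell, and 1 of these 10 rose). The photoreceptor markers summed to 3034 to 3070 in conditioned medium and 8912 to 8925 in EGF alone, and those of amacrine, horizontal and ganglion cells to 9122 to 9182 in conditioned medium and 13311 to 13431 in EGF alone (linear, quantile normalized). Their part in the protocadherin values was not tested.

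**Figure D2:**
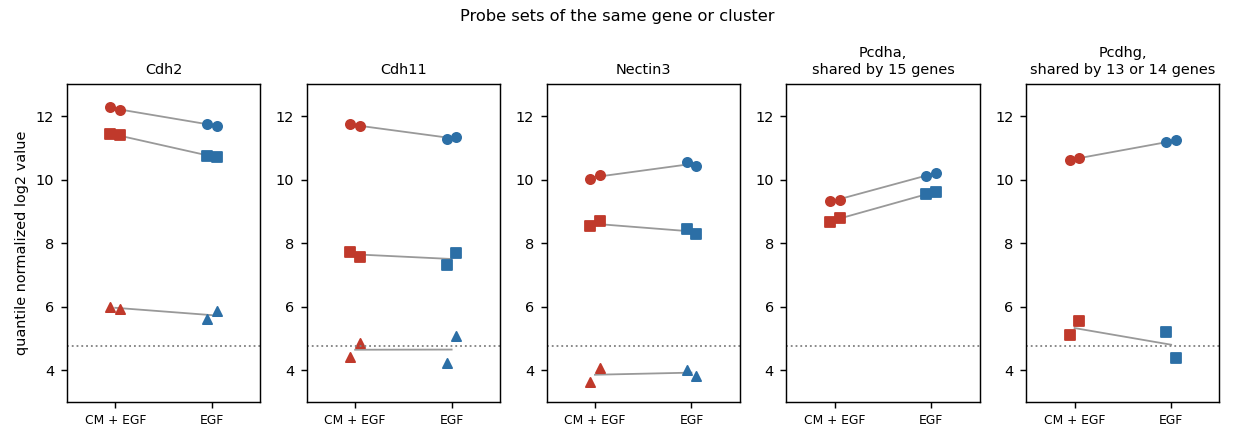
Quantile normalized log2 values of every probe set of Cdh2, Cdh11, Nectin3 and of the probe sets shared within the Pcdha and Pcdhg clusters; red points are the arrays of conditioned medium (CM) with EGF, blue points EGF alone, symbols mark different probe sets, grey lines join group means and the dotted line is the limit for dim probe sets (4.77). The Cdh2 lines slope down towards EGF alone and both Pcdha lines slope up, while the Nectin3 probe sets do not run the same way.

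Of 16 claudins 7 were bright enough to be tested. Cldn11, a claudin of myelin and of the testis barrier, stood at 7.55 and 7.69 in conditioned medium, against 7.18 and 7.00 in EGF alone. The groups did not overlap, and the rise was 0.53 ± 0.13 (1.44-fold, limma adjusted p = 0.0114, with 1.52e-04 as deposited and 0.0343 median-centred). Its second probe set was too dim to be tested and differed by 0.19. The call of Cldn11 was lost with any array left out (quantile normalized adjusted p = 0.0538 to 0.138) and with the mean of both probe sets (0.201), and on the median-centred values with no brightness filter (0.0683) and without the intensity trend (0.0609). Over all alternatives the quantile normalized p ran from 0.00474 to 0.201.

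Claudin 5 (Cldn5), the main claudin of endothelial tight junctions, stood at 5.60 and 5.80 in conditioned medium, against 5.02 and 5.04 in EGF alone. The groups did not overlap and the difference was 0.67 ± 0.24. It passed as deposited (1.42, adjusted p = 0.00226) and median-centred (adjusted p = 0.0180) but not after quantile normalization (adjusted p = 0.0521). Its EGF mean was 4.62 as deposited, under the 4.77 limit for dim probe sets. Among the other endothelial markers, the receptor Flt1 and the adhesion molecule Esam rose, by 2.09 and 0.72. Flt1 had a deposited mean of 6.22 in conditioned medium and 3.49 in EGF alone, so it passed the brightness filter only through the conditioned-medium arrays. Kdr, Vwf, Plvap, Eng and Egfl7 were bright enough to be tested and did not pass on all 3 scales, with differences of 0.41, -0.09, -0.04, 0.35 and -0.02. Kdr was higher after quantile normalization (adjusted p = 5.41e-04) and as deposited (3.60e-05), but not median-centred (0.237). Eng passed as deposited only (adjusted p = 0.0164). The other 5 markers were too dim to be tested: Pecam1 had 3.74 and 3.09 as deposited in conditioned medium, against 3.23 and 3.04 in EGF alone, and Tek, Tie1, Emcn and Erg were also under the limit on the mean of 4 arrays. The 13 endothelial markers on the array, Cldn5 among them, summed to 5924 to 5999 in conditioned medium and 4444 to 4582 in EGF alone (linear, quantile normalized), most of it from Kdr, which retinal progenitors of the mouse also express. The part of endothelial cells in the Cldn5 value was not tested.

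Cldn16, which lets magnesium pass between kidney cells, stood at 5.68 and 5.83 in conditioned medium, against 6.91 and 6.70 in EGF alone. It was lower (-1.05 ± 0.18, adjusted p = 0.00122), the largest difference in size among the 45 genes after quantile normalization, and both conditioned-medium arrays were below both EGF arrays. As deposited the difference was -0.46 (adjusted p = 0.186), so it did not pass on all 3 scales. Cldn12, Cldn3, Cldn6 and Cldn19 differed by -0.01, -0.18, -0.01 and 0.13, and none of these 4 passed after quantile normalization. Cldn12 was lower on median-centred values only (-0.25, adjusted p = 0.0470). Cldn19, a claudin of the human retinal pigment epithelium, had an EGF mean under the dim limit, as had Cldn6 and Cdh16. These genes passed the brightness filter through their conditioned-medium arrays.

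The promoters of the claudin that rose, of Cldn5 and of Cldn16 are shown because these 3 span the claudin differences. The sequences are the 250 bases before the annotated start, from RefSeq on the rat assembly GRCr8, written along the gene 5′ to 3′. Capitals mark a GC box (GGGCGG or its complement CCGCCC) or a CCAAT box (CCAAT or its complement ATTGG).
Cldn11 (chr2:114149540-114149789, minus strand): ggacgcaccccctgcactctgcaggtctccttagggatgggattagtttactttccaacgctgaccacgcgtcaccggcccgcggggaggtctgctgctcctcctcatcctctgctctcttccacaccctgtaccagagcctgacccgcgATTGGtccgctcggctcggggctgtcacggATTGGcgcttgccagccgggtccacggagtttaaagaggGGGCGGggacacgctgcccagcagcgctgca
Cldn5 (chr11:95718599-95718848, minus strand): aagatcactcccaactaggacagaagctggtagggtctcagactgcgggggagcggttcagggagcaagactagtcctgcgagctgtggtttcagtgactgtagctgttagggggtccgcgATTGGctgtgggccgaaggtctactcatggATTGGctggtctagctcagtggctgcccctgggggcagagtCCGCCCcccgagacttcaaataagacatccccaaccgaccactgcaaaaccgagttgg
Cldn16 (chr11:87814397-87814646, minus strand): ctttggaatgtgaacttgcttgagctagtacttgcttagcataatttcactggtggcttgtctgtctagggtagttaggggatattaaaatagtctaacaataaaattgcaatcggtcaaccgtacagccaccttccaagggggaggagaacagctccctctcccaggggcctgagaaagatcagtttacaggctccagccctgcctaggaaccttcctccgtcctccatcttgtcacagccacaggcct
Cldn11 and Cldn5 each held 1 GC box and 2 CCAAT boxes, both written as ATTGG, and Cldn16 held 0 of either. The CCAAT boxes began 100 and 70 bases before the start in Cldn11, and 129 and 99 bases before it in Cldn5, so the spacing was 30 bases in both. A pair of ATTGG words spaced like this stood in 34 of 33469 promoter windows (0.102%). Of the 46 windows that matched the adhesion genes 2 held it, those of Cldn11 and Cldn5 themselves. The spacing was taken from these 2, so their count was fixed in advance and is not a measure of enrichment. The CCAAT box and this spacing were chosen after the sequences were seen. Any CCAAT box was in 34.0% of all windows and in 15 of the 46 (32.6%), and a GC box in 30.5% and in 18 of the 46 (39.1%). A TATAAA word was in 12.9% of all windows and in 1 of the 46 (2.17%). The E-box CACCTG (or CAGGTG), the word bound by the Snail and Zeb repressors of cadherin genes, was in 15.9% of all windows and in 7 of the 46 (15.2%), and in 0 of the 3 shown. A match is a description of these letters and not a bound site.

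Tjp1 (ZO-1), the scaffold under tight and adherens junctions, stood at 11.42 and 11.31 in conditioned medium, against 11.31 and 11.35 in EGF alone, a difference of 0.03 ± 0.07 (adjusted p = 0.734) with overlapping groups. Tjp3 (ZO-3) differed by -0.44 ± 0.23 (adjusted p = 0.175). Neither passed on any of the 3 scales.

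Of the nectins, Nectin1 stood at 9.36 and 9.16 in conditioned medium, against 9.66 and 9.63 in EGF alone (-0.39 ± 0.09, adjusted p = 0.00865). Nectin3 stood at 10.03 and 10.13 in conditioned medium, against 10.56 and 10.43 in EGF alone (-0.41 ± 0.08, adjusted p = 0.00292). Both lay below EGF without overlap but differed by only -0.06 (Nectin1) and -0.09 (Nectin3) as deposited. A second Nectin3 probe set, at 8.53 and 8.69 in conditioned medium, against 8.46 and 8.28 in EGF alone, differed by 0.24, so the probe sets of Nectin3 disagreed in sign. Nectin3 was the only 1 of 10 adhesion genes with several probe sets above the dim limit where this was so. Nectin2 stood at 8.92 and 8.82 in conditioned medium, against 8.56 and 8.67 in EGF alone (0.26 ± 0.10, adjusted p = 0.0678), and it passed as deposited only (adjusted p = 0.00533).

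Ncam1, the neural cell adhesion molecule of neurons and progenitors, stood at 8.33 and 8.32 in conditioned medium, against 8.51 and 8.29 in EGF alone. The groups overlapped and the difference was -0.08 ± 0.11 (adjusted p = 0.620), with -0.33 for each of its dimmer probe sets. Of 6 contactins 0 passed on all 3 scales. Cntn4, an axonal contactin, stood at 6.97 and 7.22 in conditioned medium, against 7.77 and 7.79 in EGF alone. It was lower after quantile normalization (-0.68 ± 0.13, adjusted p = 0.00253) and median-centring (adjusted p = 7.62e-04) but not as deposited (-0.23, adjusted p = 0.376). Cntn1 stood at 8.59 and 8.49 in conditioned medium, against 8.68 and 7.94 in EGF alone, with EGF replicate 2 below the other 3 arrays. It passed on all 3 scales only when EGF replicate 1 was left out, and with all arrays it differed by 0.22 ± 0.19 (adjusted p = 0.398). With all arrays Cntn1 passed as deposited only (adjusted p = 0.00853). Cntn2 (TAG-1, of outgrowing axons), Cntn3, Cntn5 and Cntn6 differed by -0.27, -0.07, 0.09 and -0.21, with adjusted p of at least 0.297.

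**Figure D3:**
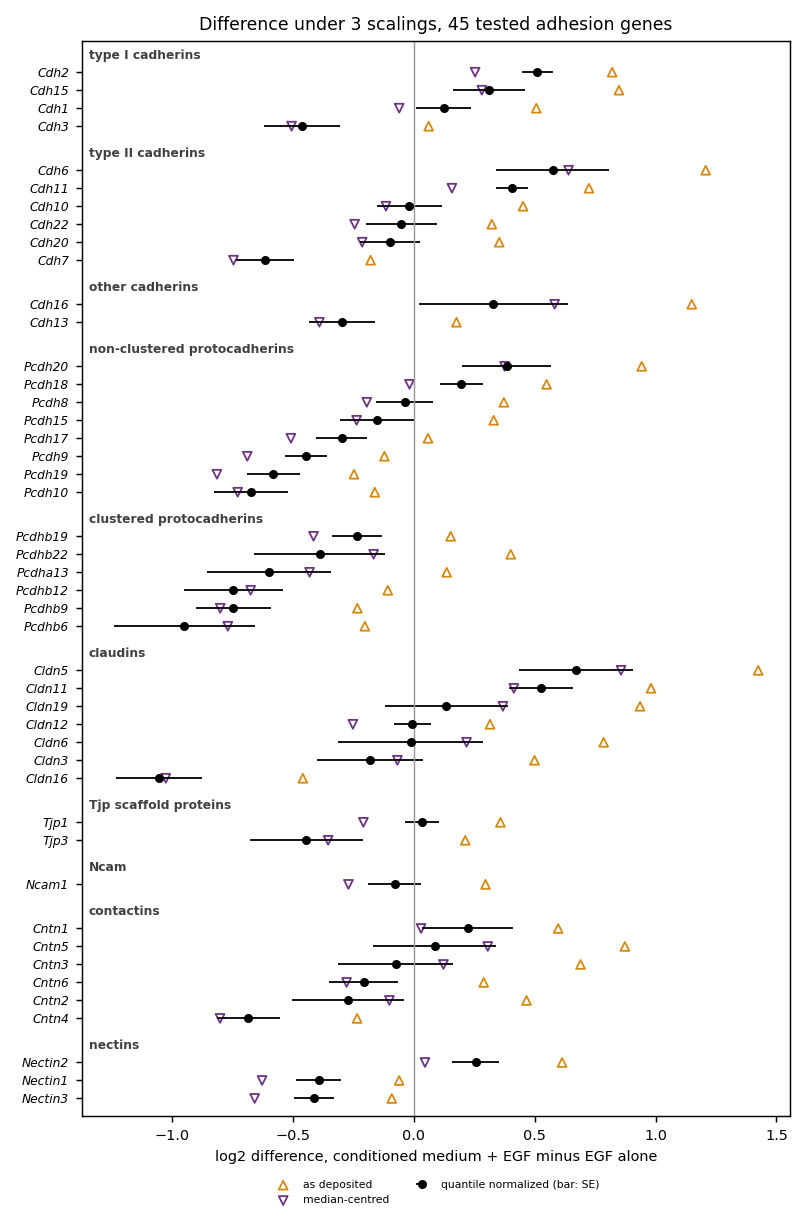
Log2 difference, conditioned medium with EGF minus EGF alone, for the 45 tested adhesion genes by family: black points with SE bars are quantile normalized values, upward triangles the deposited values and downward triangles the median-centred values. The deposited differences lie to the right of the others, and Cdh2 and Cldn11 are the 2 genes past the threshold on all 3 scales.

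The 18 adhesion genes too dim to be tested were Cdh8, Cdh12, Cdh17, Cdh23, Cldn1, Cldn2, Cldn4, Cldn7, Cldn8, Cldn10, Cldn14, Cldn18, Cldn22, Ncam2, Nectin4, Pcdha12, Pcdhb17 and Pcdhb21. Their means over the 4 arrays ran from 2.91 to 4.74 as deposited, and their quantile normalized differences from -0.81 to 0.25. They include the epithelial claudins Cldn1, Cldn4 and Cldn7. The endothelial cadherin Cdh5 and the retinal cadherin Cdh4 had no probe set annotated to them alone, so they could not be analysed here.

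A few adhesion genes are next to each other among the protein-coding genes of GRCr8. Cdh1 and Cdh3 are such neighbours, with differences of 0.12 and -0.46. Cntn4 and Cntn6, at -0.68 and -0.21, are another pair. Cldn16 lies beside Cldn1, which was too dim to be tested.

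Genes that work with these adhesion molecules included some of larger difference, such as vinculin. Of 61 tested partner genes 11 rose and 5 fell (18.0% and 8.20%, where 9.12% and 1.78% of all genes did), with a median difference of -0.03, against 0.00 for all genes. Among 12 catenins and cytoplasmic partners 3 rose and 0 fell. Vinculin (Vcl), which links catenins to actin under tension, stood at 9.23 and 9.41 in conditioned medium, against 7.72 and 7.88 in EGF alone and rose by 1.52 ± 0.11 (adjusted p = 4.97e-06). The armadillo proteins Pkp1 and Pkp4 rose by 0.96 ± 0.24 and 0.65 ± 0.08. Pkp1, F11r and Twist1 passed the brightness filter only through conditioned medium: their deposited means there were 6.19 (Pkp1), 6.45 (F11r) and 6.76 (Twist1), against 4.50, 4.63 and 4.70 in EGF alone, under the limit of 4.77. The sizes of these 3 differences are therefore set against a dim level. Beta-catenin (Ctnnb1), p120 catenin (Ctnnd1) and alpha-catenin (Ctnna1) did not pass on all 3 scales. They differed by -0.09 ± 0.05 (Ctnnb1), 0.46 ± 0.20 (Ctnnd1) and 0.36 ± 0.06 (Ctnna1).

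Among 14 tested tight junction and scaffold genes 2 rose, F11r (JAM-A, 1.10 ± 0.24) and Esam (0.72 ± 0.20), and 1 fell, the polarity protein Pard6b (-1.02 ± 0.10). Pard6b stood at 8.77 and 8.99 in conditioned medium, against 9.98 and 9.82 in EGF alone, and its groups did not overlap. Occludin (Ocln) was too dim to be tested. Of 5 nectin partners and nectin-like genes the poliovirus receptor Pvr rose (1.23 ± 0.17) and the neuronal nectin-like molecule Cadm3 fell (-0.82 ± 0.10), while afadin, Afdn, which ties nectins to actin, differed by -0.15 ± 0.08. Of 9 contactin partners and L1 family genes Nrcam rose (0.55 ± 0.09) and the amyloid precursor-like protein Aplp1 fell (-0.98 ± 0.09), while the matrix protein Tnr differed by -1.12 ± 0.27 and the axonal L1cam by -0.78 ± 0.14, neither of which passed as deposited. For Ncam, the polysialic acid enzyme St8sia4 differed by 0.22 ± 0.24 and St8sia2 was too dim.

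Of 4 tested regulators of cadherin genes Twist1 rose (1.36 ± 0.21), and Snai1, Zeb1 and Zeb2 differed by 0.56, 0.09 and -0.19. Of 3 tested proteases that can cut cadherins Adam10 and Mmp14 rose (0.68 ± 0.14 and 0.65 ± 0.07). Adam10 is known to shed N-cadherin. Among 13 other cadherin-like genes, the desmosomal cadherin Dsc2 rose (0.66 ± 0.19), and the photoreceptor cadherin Cdhr1 (-1.68 ± 0.07) and calsyntenin Clstn1 (-0.65 ± 0.06) fell.

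With any 1 array left out, Vcl, Pkp4, Pvr, Twist1, Mmp14 and Cdhr1 passed on all 3 scales. Lost with any 1 left out were Esam, Dsc2 and Clstn1, and the other 7 were lost in some of these fits. With the replicate as a block 11 partner genes rose and only 1 fell, Cdhr1. The calls of Adam10, Mmp14, Nrcam and Cadm3 were lost when the mean of all probe sets of the gene was used. In the same arrays the mesenchymal markers summed to 2472 to 2577 in conditioned medium and 843 to 1001 in EGF alone and the microglial markers to 1236 to 1244 in conditioned medium and 635 to 692 in EGF alone (linear, quantile normalized). Of the mesenchymal markers Dcn, Lum, Rgs5, Cspg4, Prrx1 and Thy1 were too dim to be tested, as were Itgam, C1qb and P2ry12 of the microglial ones. Of those that rose, Tagln, Twist1, Aif1, Ptprc and C1qc passed the brightness filter only through conditioned medium. Twist1 is on both the regulator and the mesenchymal list. Their part in the partner gene values was not tested.

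**Figure D4:**
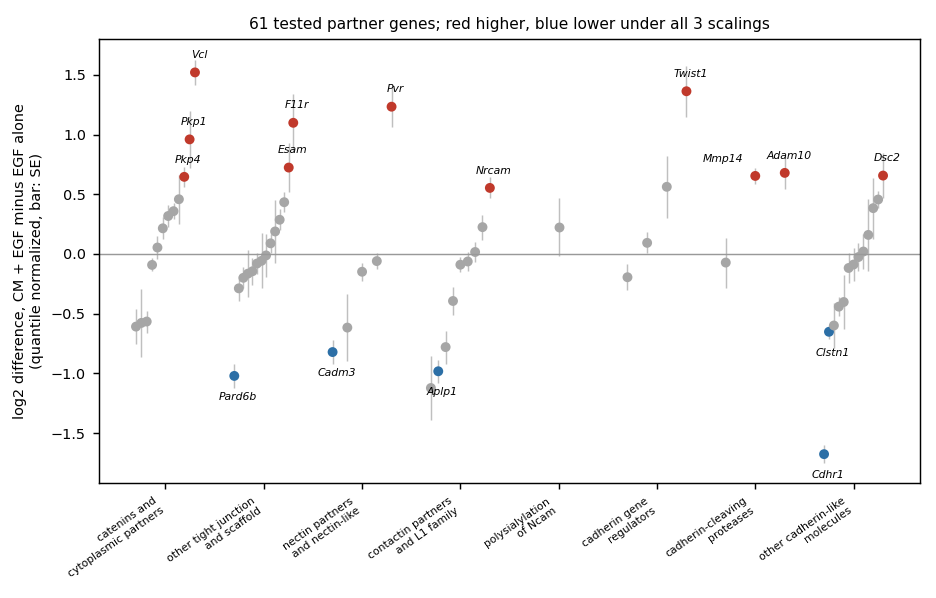
Quantile normalized log2 difference, conditioned medium (CM) with EGF minus EGF alone, of the 61 tested partner genes by list, with SE bars; red points rose and blue points fell on all 3 scales, grey points did not pass on all 3. Vcl, Twist1, Pvr and F11r lie above 1, and Cdhr1, Tnr and Pard6b below -1.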

How the data were processed

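Total RNA of 4 neurosphere cultures, 2 per condition, was measured on Affymetrix rat expression arrays. The authors deposited log2 values made by RMA in GenePattern, per the series' design text, for 31099 probe sets. The RMA version and its normalization option are not given in the sources used here. Those values are coarse at the low end: an array held 2738 to 3291 distinct values, and neighbouring ones lay 0.049 apart between 4 and 5 and 0.0019 apart between 9 and 10.

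Probe sets were named through the platform annotation, and 20826 with 1 symbol were used; 57 control probe sets were left out. Of the 63 members, 61 matched the RefSeq table by gene identifier. A gene's value is that of its probe set with the highest mean of 4 arrays, and genes in the lowest 30% of probe set means (under 4.77 log2) were not tested. Quantile normalization and median-centring used all probe sets. The fit was limma 3.58.1 in R 4.3.3 (lmFit, eBayes with an intensity trend, two-sided). On deposited values the prior took over the gene-wise spread entirely, so those p-values rest on pooling across genes. The procedure was run on simulated data with shifts of at least 1 log2, larger than those of Cdh2 and Cldn11. Its pass condition looked only at calls on quantile normalized values. It therefore does not show how well the rule of 3 scales finds differences of their size. The genes named were all members called on all 3 scales, the brightest member and the extremes of each family, 7 fixed members and 6 fixed partner genes, and up to 3 called partner genes per list and direction. Of the fixed genes, Cdh4, Cdh5 and Snai2 had no probe set annotated to them alone and so have no values here. Most other tested members are named too, chosen after their values were seen. The members and lists were chosen with earlier results of these data known. Replicates came from separate embryo pools that each served both conditions, per the design text. It does not tie the replicate numbers to the pools, so the block was an alternative. Deviations of same-numbered arrays from the group means correlated at -0.12 as deposited and -0.03 after quantile normalization across genes.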

Additional observations from a re-analysis of the deposited data

How the results depend on the processing

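The counts of adhesion genes that rose (2) and fell (0) were recomputed under other settings. Deposited values alone gave 12 higher and 0 lower, median-centred values alone 4 and 15, and quantile normalized values alone 3 and 12. The fold rule (at least 1 log2 apart with no overlap after quantile normalization) gave 0 higher and 1 lower, Cldn16, where 2.27% and 1.07% of all genes passed it. On all 3 scales, 1 rose with no brightness filter, 1 without the intensity trend (Cldn5 in both settings, not Cdh2 or Cldn11) and 1 with the replicate block (Cldn11). The mean of all probe sets gave 2, Cdh2 and Cldn5. Leaving out 1 array gave 0 to 1 higher (Cntn1 without EGF replicate 1) and 0 lower. Pairing the arrays by crossed numbers, chosen after seeing the data because of the negative correlation of same-numbered arrays as deposited, gave 2 higher and 2 lower adhesion genes and 13 higher and 6 lower partner genes. For the 61 tested partner genes (11 higher, 5 lower), deposited values alone gave 24 higher, where 40.4% of all genes were. Median-centred values alone gave 21 lower and quantile normalized values alone 12 lower, where 32.2% and 14.6% of all genes were. The fold rule gave 4 higher and 3 lower partner genes. Leaving out the lowest 50% of probe set means gave 5 higher of 41 tested, leaving out the intensity trend 3 lower, and the replicate block 1 lower. Leaving out 1 array gave 5 to 8 higher and 2 to 3 lower. The cause of these shifts was not tested, apart from the smaller number of genes under the stricter filter. Another count took 1 scale at a time, not the call on all 3, and set each value against the quantile normalized result. It covered 693 values of genes and shared protocadherin probe sets under other settings. Of these, 580 kept their side of the threshold, 89 lost it, 23 gained it and 1 reversed, Cdh3 as deposited (0.062). By this count Cdh2 kept its side in every setting, although its call on all 3 scales was lost in several. The 2 arrays per condition limit the precision.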
